A study of Mus musculus with 9 samples.

Results

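The genes described here are Masp1 and 7 other complement components and regulators, C1ra, C3, C4b, Cfb, Serping1, Cd55 and Cd59a, followed across all 9 libraries. They were picked by symbol because Masp1 was among the firmest rises after BAL101553, and all 8 were found among the 24421 rows of the count table. BAL101553 (lisavanbulin) is a prodrug that activates the spindle assembly checkpoint, and the tumor cells are of SB28, a line of mouse glioma marked with GFP and luciferase. SB28 cells had been implanted into the brains of C57BL/6 mice aged 6 to 8 weeks, which received vehicle (control, 3 libraries) or BAL101553 (3 libraries). The study's text gives another number of such samples per group than the labels, which are followed here. The labels call this material whole tissue, whereas the study describes GFP+ cells sorted without CD45+ and CD11b+ cells. The labels of the remaining 3 libraries give astrocytes from C57BL/6 brain and the same drug, and no source used here says how these cells were isolated or whether the brain bore a tumor. BAL101553 tumors were taken later than control tumors to match tumor volume, so the drug and the time of growth cannot be told apart. SB28 is a single line, and nothing says that each library came from a separate mouse, so errors and p-values measure the spread between libraries only.

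Complement is a cascade of plasma proteins that tags cells and debris for clearance, draws in leukocytes and can open pores in membranes. The lectin, classical and alternative routes, started by sugar patterns, by C1q and by spontaneous turnover of C3, meet at the cleavage of C3. Host cells carry or secrete regulators that stop the cascade on their own surface. In brain, glia make much of the local complement, and C1q and C3 are known for marking synapses for removal.

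Total counts lay between 24540452 and 28761388 in the control group, 26667789 and 34013875 in the BAL101553 group and 22919523 and 29230743 in the astrocyte-labelled group. Levels are CPM (counts scaled to library size), with library sizes scaled by TMM over the 9 libraries. The 8 astrocyte genes listed summed to between 11999 and 14749 CPM in the astrocyte-labelled libraries, against 681 to 972 in the SB28 libraries. Of these genes, Aqp4 lay between 540 and 708 CPM in the astrocyte-labelled libraries and at 2 to 5 counts in each SB28 library. Gja1 made up most of the SB28 sum, at 650 to 928 CPM, against 1352 to 1605 in the astrocyte-labelled libraries. Aldh1l1 stood at 20.3 to 44.4 CPM in SB28 libraries, against 223 to 255. The astrocyte-labelled libraries also held oligodendrocyte and microglial RNA. Their 6 oligodendrocyte genes summed to between 10282 and 12723 CPM, against 15.3 to 20.6 in the SB28 libraries, and their 10 microglia and macrophage genes to between 514 and 997, against 75.1 to 199. No gene of these lists was at 0 in every SB28 library, but Csf1r, the growth factor receptor of microglia and macrophages, reached at most 0.671 CPM there, against 160 to 331 in the astrocyte-labelled libraries. Some endothelial and mural genes were also high in the astrocyte-labelled libraries. Cldn5 lay at 59.6 to 63.7 CPM, against at most 1.48 in SB28 libraries, and Rgs5 at 92.3 to 113, against at most 7.07. Pecam1, Kdr, Tek and Lum were higher too, Cdh5, Col1a1, Col1a2, Col3a1 and Pdgfra were lower, and Flt1, Dcn and Pdgfrb overlapped. In such bulk samples a different number of cells of a type and a different amount of RNA per cell cannot be told apart.

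Masp1 encodes the serine protease MASP-1, which rides on mannose-binding lectin and ficolins and starts the lectin route. It lies on the minus strand of chromosome 16 (GRCm38, 23449417 to 23520815). In the control libraries it stood at 10.1, 11.4 and 10.2 CPM. In the BAL101553 libraries it stood at 28.1, 31.2 and 27.9 CPM. In the astrocyte-labelled libraries it stood at 12.1, 10.4 and 9.51 CPM. The BAL101553 libraries were all far above the other libraries, whose 2 groups overlapped. The means were 10.6 ± 0.758 (SD, n = 3) in controls, 29.1 ± 1.82 after BAL101553 and 10.7 ± 1.31 in the astrocyte-labelled group. The log2 fold change after BAL101553 was 1.46 (standard error 0.12), a 2.76-fold difference.

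Because Masp1 was chosen on that comparison, its place there is a description. Ordered by p, it was gene 6 of the 12633 tested in edgeR's quasi-likelihood fit, while 275 of the 1091 genes called higher had a larger fold. It was thus among the most even differences, not among the largest. Leaving out any single library kept the log2 fold change between 1.41 and 1.51. Summed CPM of 8 fibroblast and mural genes was 9420 to 10142 in controls and 14423 to 15590 after BAL101553. In SB28 libraries this sum was mostly Col1a1, Col1a2 and Col3a1. Of the 8, the mural gene Rgs5 went the other way, at 2.35 to 7.07 CPM in controls and 0.276 to 1.44 after BAL101553. Lum overlapped between the 2 groups. The part of fibroblast or mural cells, or of this gene program, in the Masp1 values was not tested. In the astrocyte-labelled libraries the same sum was 476 to 528, whereas Masp1 was at the control level. The log2 fold change of Masp1 there was -1.43 (standard error 0.13) against BAL101553 and 0.018 (standard error 0.14) against control.

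**Figure D1:**
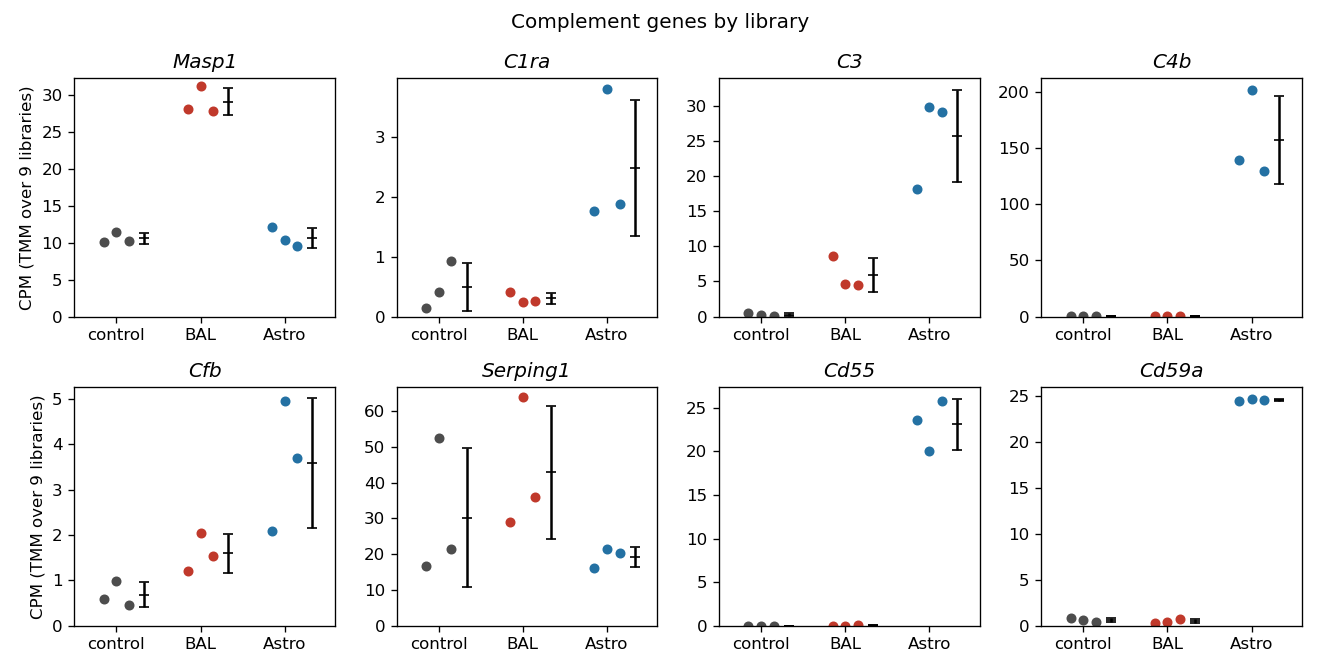
Levels of the 8 complement genes in CPM (vertical axes, linear, from 0) in each library of the control, BAL and Astro (astrocyte-labelled) groups, with the mean and SD of 3 libraries beside the points. Masp1 is high in the BAL group alone, C3 steps up from control to BAL to Astro, and C4b, Cd55 and Cd59a are high in the Astro group alone.

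Of the other genes that act at the start of the cascade, C1ra encodes C1r, the protease that C1q activates in the classical route. C1ra was barely detected in SB28 cells, with 3, 11 and 22 counts in the control libraries and 12, 6 and 9 counts after BAL101553, and the groups overlapped. The log2 fold change was -0.68 (standard error 0.64), and it turned to 0.11 without control 3. In the astrocyte-labelled libraries C1ra stood at 1.76, 3.79 and 1.89 CPM, above every SB28 library. Of its 50-base exon stretches, 50.8% also occur in other genes, mostly in its neighbour C1rb, which was listed at 0 counts in all 9 libraries, so the level of C1ra is uncertain.

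C3 encodes the protein at which the routes meet, whose fragments coat targets and signal inflammation. The gene is on the minus strand of chromosome 17 (57203970 to 57228136). In the control libraries it had 11, 4 and 2 counts, or 0.494, 0.152 and 0.0842 CPM. In the BAL101553 libraries it had 253, 117 and 152 counts, or 8.65, 4.62 and 4.48 CPM. The astrocyte-labelled libraries held it at 18.1, 29.8 and 29.1 CPM. The 3 groups did not overlap, and control lay lowest. The log2 fold change after BAL101553 was 4.61 (standard error 0.57), the largest among the 8 genes in this comparison, on a control level of a few counts. Summed over libraries, the ratio was 25.1, with a 95% interval of 15.5 to 43.5 that covers counting error only. Without control 1, the control library with most C3 counts, the log2 fold change was 5.58. The BAL101553 libraries held C3 at a mean of 5.92 ± 2.37 CPM against 25.7 ± 6.58 in the astrocyte-labelled libraries. In the control, BAL101553 and astrocyte-labelled groups Aqp4 was at 0.152 to 0.210, 0.0589 to 0.171 and 540 to 708 CPM. Csf1r was at 0.379 to 0.404, 0.547 to 0.671 and 160 to 331 CPM. Of the same astrocyte and microglia lists, Slc1a3 was also higher after BAL101553 than in controls (0.583 to 0.716 and 1.30 to 2.96 CPM). P2ry12 (1.02 to 2.69 and 0.355 to 0.589), Laptm5, Aldh1l1 and Gja1 were lower, and the rest overlapped between control and BAL101553. The part of astrocytes or microglia in the C3 level after BAL101553 was not tested.

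The bases just before the C3 start are shown because C3 had the largest difference, and those before Cd55 because it was at or near 0 in every SB28 library. Capitals mark matches on either strand to the letters TTNCNNAA (a C/EBP-type motif) or GGGNNNNNCC (an NF-kB-type motif), and overlapping matches are capitalized as 1 run. Sequences are from RefSeq on GRCm38.p6, whose table held 4 of the 8 genes, and both are read 5′ to 3′ on the minus strand.
C3, chr17:57228137-57228386: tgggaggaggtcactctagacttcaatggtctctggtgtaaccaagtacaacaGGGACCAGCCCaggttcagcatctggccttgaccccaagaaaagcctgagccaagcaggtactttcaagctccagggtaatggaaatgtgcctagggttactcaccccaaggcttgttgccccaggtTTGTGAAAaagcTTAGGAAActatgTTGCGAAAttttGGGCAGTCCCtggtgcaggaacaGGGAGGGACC
Cd55, chr1:130462745-130462994: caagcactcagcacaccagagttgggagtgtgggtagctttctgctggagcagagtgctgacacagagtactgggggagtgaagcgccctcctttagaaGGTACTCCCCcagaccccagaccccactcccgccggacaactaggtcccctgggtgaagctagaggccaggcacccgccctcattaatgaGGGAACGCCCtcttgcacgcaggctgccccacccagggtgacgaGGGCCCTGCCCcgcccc
The C3 window held 3 C/EBP-type matches, 70, 58 and 45 bases before the start, and 4 NF-kB-type matches. Of 32851 promoters of the same length, 36.8% held at least 1 C/EBP-type match, 2.61% held 3 or more, while 45.8% held an NF-kB-type match and 10.7% held 3 or more. The Cd55 window held no C/EBP-type match and 4 NF-kB-type matches. A match describes letters and not binding.

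C4b encodes C4, which the lectin and classical proteases cut next, and lies on chromosome 17 (34728380 to 34743882). In the control libraries it had 15, 16 and 14 counts. In the BAL101553 libraries it had 23, 17 and 14 counts. In the astrocyte-labelled libraries it had 4537, 5867 and 3443 counts, or 140, 202 and 130 CPM. The SB28 groups overlapped, at means of 0.623 ± 0.0442 and 0.623 ± 0.192 CPM, and the astrocyte-labelled libraries lay far above both. Cfb encodes factor B, which pairs with C3b in the alternative route. It stood at 0.583, 0.985 and 0.463 CPM in controls, at 1.20, 2.05 and 1.53 after BAL101553 and at 2.10, 4.97 and 3.70 in the astrocyte-labelled libraries. No group of Cfb overlapped another, although it was not called after BAL101553 (log2 fold change 1.22, standard error 0.38). Read sharing limits both genes, since 35.2% of C4b stretches also occur in other genes, mostly its neighbour C4a, and 74.2% of Cfb stretches also lie in a read-through gene that is no row of the table.

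Serping1 encodes C1 inhibitor, a secreted serpin that blocks C1r, C1s and the MASP proteases. In the control libraries it stood at 16.7, 52.5 and 21.4 CPM. In the BAL101553 libraries it stood at 28.9, 64.0 and 35.8 CPM. The astrocyte-labelled libraries stood at 16.2, 21.6 and 20.2 CPM. The SB28 groups overlapped, and the second library of each was the highest. The log2 fold change after BAL101553 was 0.51 (standard error 0.45), and it ranged from 0.10 without BAL101553 2 to 1.17 without control 2. Serping1 is an interferon-inducible gene, and the summed CPM of 12 interferon response genes is therefore set beside it. The sum was 326, 554 and 667 in controls, 337, 737 and 542 after BAL101553 and 152, 146 and 143 in the astrocyte-labelled libraries. After BAL101553 both were highest in library 2 and lowest in library 1, while in controls Serping1 was highest in library 2 and the sum in library 3. None of the 12 genes was called after BAL101553 in edgeR's quasi-likelihood test, 1 had an unadjusted p under 0.05 and 0 were called by DESeq2. Of the 12, 6 had a positive log2 fold change, and the median was 0.01 (-0.39 to 0.82).

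**Figure D2:**
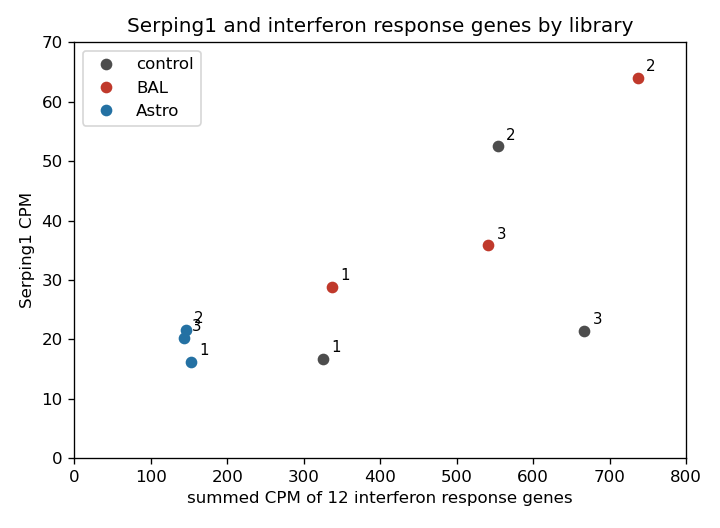
Serping1 level (vertical axis, CPM) against the summed CPM of 12 interferon response genes (horizontal axis) in each library, numbered by replicate and colored by group. Within the SB28 groups Serping1 was highest in library 2 of each, at 52.5 and 64.0 CPM, and the astrocyte-labelled libraries lie together at low sums.

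Cd55 and Cd59a encode GPI-anchored regulators of the cell surface, of which CD55 speeds the decay of C3 convertases and CD59 blocks the membrane attack complex. Cd55 had 0 counts in all 3 control libraries, 0, 0 and 3 counts after BAL101553, and 767, 580 and 683 counts in the astrocyte-labelled libraries. It was not tested in the SB28 comparison, and a count of 0 allows up to 3 counts in a library. Cd59a stood at 0.852, 0.568 and 0.379 CPM in controls, at 0.308, 0.355 and 0.766 after BAL101553, and at 24.5, 24.7 and 24.6 in the astrocyte-labelled libraries. The SB28 groups overlapped for Cd59a, with a log2 fold change of -0.30 (standard error 0.49) that was 0.03 without control 1. Some reads of the mouse paralogs cannot be told apart, as 9.62% of Cd55 stretches also occur in Cd55b and 3.87% of Cd59a stretches in Cd59b.

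Of the 8 genes, 7 were tested after BAL101553, Masp1 and C3 were called higher at an adjusted p under 0.05 and no gene was lower. Of all 12633 genes tested, 14.7% were called, 8.64% higher and 6.09% lower. Scaled by total library size alone, 1456 genes were higher and 425 lower, in place of 1091 and 769. Masp1, C3 and Cfb did not overlap between groups, on a background of 20.1% of all genes that lay wholly higher. The median log2 fold change of the 7 genes was 0.51 and that of all genes 0.02. Nothing is read from these counts, since the comparison was used in choosing the genes.

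Per kilobase of exon, the only scale on which genes are compared here, Serping1 was the highest of the 8 in control and BAL101553 libraries, at means of 13.0 and 18.5 CPM per kilobase, followed by Masp1 at 1.08 and 2.96. In the control group the next levels, of Cd59a (0.331), Cfb (0.240) and C1ra (0.165), lay within their spread. After BAL101553, C3 (1.15) came next and then Cfb (0.564). In the astrocyte-labelled group the order was C4b (27.6), Cd59a (13.6), Serping1 (8.31), C3 (4.99), Cd55 (4.77), Cfb (1.27), Masp1 (1.08) and C1ra (0.832), where C3 and Cd55 overlapped, as did the last 3.

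The astrocyte-labelled libraries were compared with the BAL101553 libraries, which received the same drug according to the labels but hold other cells. These BAL101553 libraries also entered the choice of Masp1, so its difference is given above without a test. In edgeR's quasi-likelihood test, all 7 other genes were called, 6 higher and 1 lower in the astrocyte-labelled group, where 85.1% of the 15314 genes tested were called, 46.3% higher and 38.9% lower. The 6 higher genes also did not overlap between groups, against 47.6% of all genes. On the log2 scale C4b was higher by 8.01 with a standard error of 0.29 (adjusted p = 1.04e-07) and Cd59a by 5.65 with one of 0.29. Cd55, Cd59a and C1ra had too few counts after BAL101553 and passed the expression filter only through the astrocyte-labelled libraries. Their calls as higher were thus largely set in advance, and their p-values are left out. The ratio of summed CPM of Cd55 was 681 on 3 BAL101553 counts, with a counting interval of 233 to 3307. C1ra was higher by 3.02 with a standard error of 0.43 and C3 by 2.13 with one of 0.31 (adjusted p = 0.000278). BAL101553 3 was the only SB28 library with Cd55 counts.

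Serping1 was lower, at -1.13 with a standard error of 0.28 (adjusted p = 0.00535), and every astrocyte-labelled library lay below every BAL101553 library. Against control it was -0.64 (adjusted p = 0.144, edgeR). Cfb was higher by 1.19 (standard error 0.36, adjusted p = 0.0149), a call that was lost without BAL101553 1 (adjusted p = 0.0555) and without astrocyte-labelled library 2 (adjusted p = 0.0636). The second astrocyte-labelled library was the highest for C1ra, C3, C4b, Cfb and Serping1 and held the most microglial marker RNA, and the part of microglia in these levels was not tested. The median log2 fold change of all genes was 0.18 in this comparison and 0.39 with total library size, and the 8 genes kept their direction under both.

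**Figure D3:**
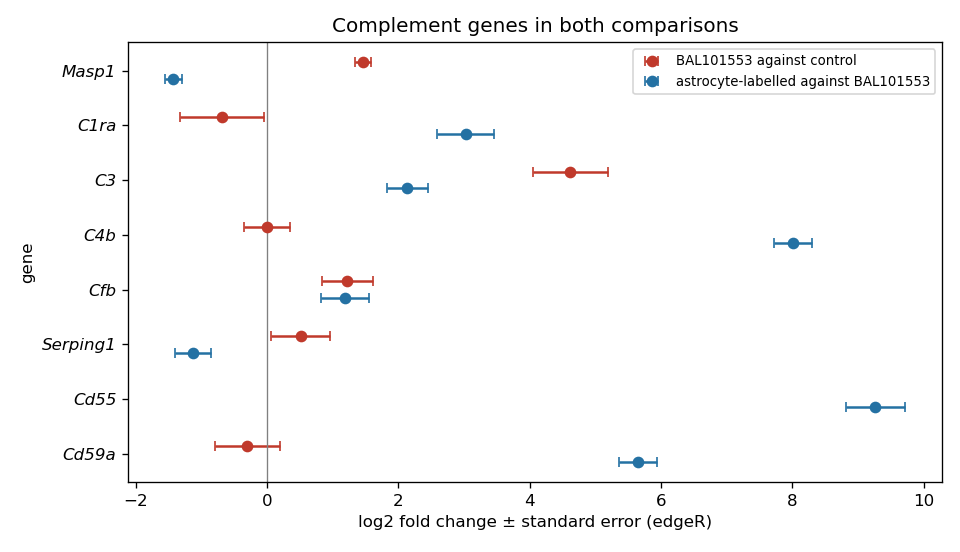
Log2 fold change (horizontal axis, edgeR, bars are standard errors) of each complement gene after BAL101553 against control and in astrocyte-labelled against BAL101553 libraries, which share the BAL101553 libraries. Masp1 lies at 1.46 and -1.43, C3 is positive in both, and Cd55 has no point in the first comparison because it was not tested.

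The rest of the pathway was read from a list of 53 other complement genes, of which 17 were tested after BAL101553 and 36 were too low. Of these 17, 2 were higher, 2 lower and 13 not called, where 14.7% of all genes tested were called, 8.64% higher and 6.09% lower. Their median log2 fold change was 0.34, against 0.02 for all genes. Cfp encodes properdin, which stabilizes the alternative C3 convertase, and stood at 4.53, 5.31 and 4.59 CPM in controls and at 9.68, 9.55 and 9.72 after BAL101553. Its log2 fold change of 1.01 had a standard error of 0.15 (adjusted p = 0.0110 in edgeR's quasi-likelihood test), and the call was lost only without control 3 among the fits that left out 1 library. C4a, the close paralog of C4b, stood at 0.179, 0.265 and 0.421 CPM in controls and at 1.03, 1.22 and 0.825 after BAL101553, while C4b stayed within its spread. C4a was higher by 1.81 with a standard error of 0.40 (adjusted p = 0.0276, edgeR), a call that held without BAL101553 2 and was lost when any of the other 5 libraries was left out. Of the C4b stretches, 35.2% also occur in C4a, so some reads may be assigned to either gene.

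The 2 genes that fell encode proteins linked to C1q. Cd93, a membrane protein of endothelial and myeloid cells formerly described as a C1q receptor, was at 951, 729 and 724 CPM in controls and 366, 210 and 432 after BAL101553 (log2 fold change -1.25, standard error 0.25, adjusted p = 0.0203, edgeR). C1qbp, a largely mitochondrial protein that can bind C1q, was at 139, 151 and 160 CPM and at 111, 119 and 109 (log2 fold change -0.40, standard error 0.090, adjusted p = 0.0281, edgeR). The call of Cd93 was lost without control 1 or control 3, and that of C1qbp when any library but BAL101553 2 was left out. The sum of 6 endothelial genes was also lower, at 740 to 868 CPM in controls and 516 to 647 after BAL101553. This sum was nearly all Cdh5. Tek was lower as well, at 3.56 to 9.87 and 0.473 to 3.39 CPM. Flt1 (29.7 to 37.4 and 24.0 to 70.6), Cldn5 (0.295 to 1.48 and 0.750 to 0.889), Pecam1 and Kdr overlapped between groups. The sum of 10 microglia and macrophage genes was lower as well, at 141 to 199 and 75.1 to 96.9 CPM, with Laptm5 at 95.4 to 143 and 14.2 to 51.1. The part of either cell type in the fall of Cd93 was not tested. By role, the calls were 1 of 5 tested classical genes, 1 of 1 alternative gene and 2 of 4 receptors, groups too small to set against the 14.7% called among all genes.

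Genes next to the named ones were looked at after their values were seen. C2, beside Cfb on chromosome 17, stood at 1.70, 3.45 and 3.91 CPM in controls and 4.04, 7.26 and 6.30 after BAL101553 (log2 fold change 0.96, adjusted p = 0.0987, edgeR). C1s1, beside C1ra on chromosome 6, stood at 0.494, 0.720 and 4.80 and at 0.274, 0.197 and 0.0295 (log2 fold change -3.59, adjusted p = 0.0557, edgeR), and control 3 alone set most of its control level. Neither passed the threshold, but C1s1 was called by DESeq2 (adjusted p = 0.0031), with at least 1 count in any library (0.0396) and with all 9 libraries in one model (0.0269).

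**Figure D4:**
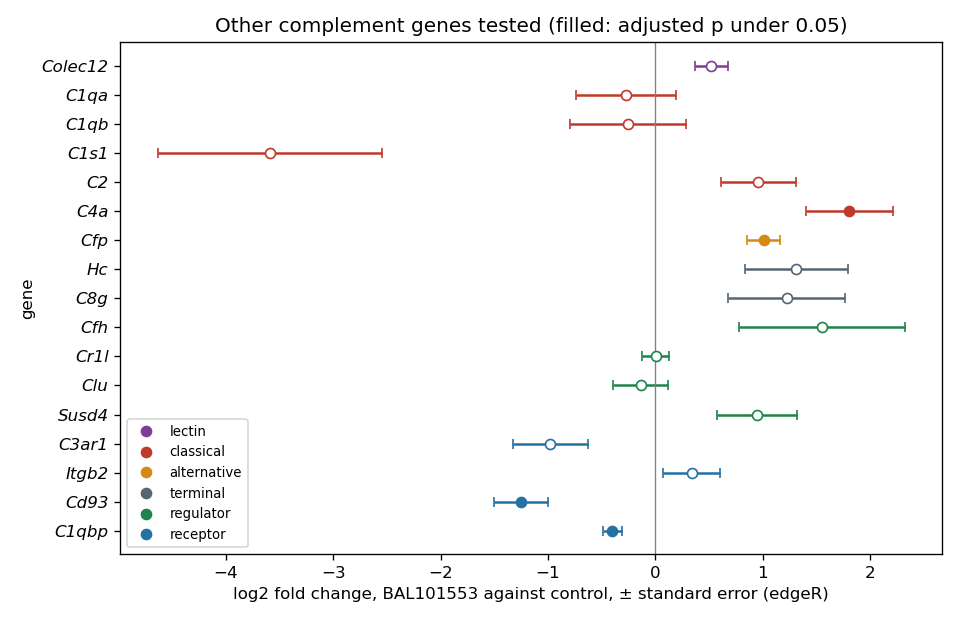
Log2 fold change after BAL101553 (horizontal axis, bars are standard errors) of the 17 other complement genes tested, colored by role, with filled points for an adjusted p under 0.05. Cfp and C4a lie to the right and Cd93 and C1qbp to the left as filled points.

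Against BAL101553, 33 of the 53 genes were tested in the astrocyte-labelled libraries, of which 28 were higher, 3 lower and 2 not called, where 85.1% of all genes tested were called, 46.3% higher and 38.9% lower. The median log2 fold change was 3.90, against 0.18 for all genes. Only 17 of the 53 had passed the expression filter among the SB28 libraries. The others tested here passed through their counts in the astrocyte-labelled libraries, so their calls as higher were largely set in advance. C1qc, Fcna, Masp2, Itgam, C5ar1, Vtn, Csmd2 and Cd59b were of this kind. C1qb, C1qa and C1s1 were among the 17, but had too few counts after BAL101553 and here also passed through the astrocyte-labelled libraries. Their calls as higher were likewise largely set in advance. Nothing is therefore read from the number higher or the median. The classical C1q subunits C1qc and C1qb rose by 8.47 and 7.99, the lectin gene Fcna by 2.54, the terminal genes Hc and C8g by 3.92 and 1.53, and Cfp by 0.56. The lectin list went both ways. Masp2 was called higher on 0, 0 and 2 counts after BAL101553 and 22, 24 and 22 in the astrocyte-labelled libraries, while Colec12, a scavenger-type collectin that held nearly all of the list's RNA and is named after its values were seen, was lower at 32.3, 36.9 and 36.1 CPM against 177, 161 and 185 (log2 fold change -2.30, adjusted p = 2.61e-07, edgeR). Among receptors, Itgam, a subunit of complement receptor 3, rose by 7.59 and C5ar1, the C5a receptor, was called higher on 1 count in each BAL101553 library and 83, 152 and 133 counts in the astrocyte-labelled ones, while Cd93 was lower, at -4.46. Among regulators, Vtn, which encodes the terminal-pathway inhibitor vitronectin, rose by 11.36, and Csmd2 was listed at 0 in every BAL101553 library and at 778, 606 and 465 counts in the astrocyte-labelled ones. Without BAL101553 1, Itgam was at 8.37 and Vtn at 11.98. The values given for rises are log2 fold changes of genes called in edgeR's quasi-likelihood test. C1q subunits and Itgam are also made by microglia, whose markers were high here. Some endothelial and mural markers were high as well, and the part of any of these cells in the values was not tested. The paralog Cd59b was higher by 2.05, C1rb had 0 counts throughout, and Cd55b had 0 counts in every SB28 library and 4, 0 and 2 in the astrocyte-labelled libraries.

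The 5 genes whose log2 CPM followed Masp1 most closely over the 9 libraries, among 12748 genes, were Ltbp2 (r = 0.986), Pkd2 (0.985), Slc27a3 (0.982), 9330188P03Rik (0.982) and Ipmk (0.98). Ltbp2, a binding protein of the extracellular matrix, stood at 12.8 ± 1.99, 109 ± 16.6 and 16.0 ± 4.94 CPM (SD, n = 3) in the control, BAL101553 and astrocyte-labelled groups. Pkd2, a calcium-permeable channel of cilia, stood at 76.0 ± 2.79, 143 ± 13.1 and 77.6 ± 2.41. All 5 share the shape of Masp1, high after BAL101553 and alike in the other groups, which with 3 groups many genes can take. The correlations of the other 7 genes with Masp1 ran from -0.533 for Cd59a to 0.634 for Serping1, and the libraries share their groups, so no p is given.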

How the data were processed

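RNA was sequenced by the authors. They mapped the reads with TopHat to mm10 (GRCm38) and counted them with HTSeq 0.6.1 according to the submitters' processing notes. The deposited values are raw read counts of each gene in 9 libraries, which the labels place in 3 groups of 3. The gene annotation and the treatment of shared reads are not given in the sources used here. Date-like names stood in place of 27 gene symbols and were retained, at no more than 0.440% of counts per library.

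The analysis used edgeR 4.0.16 in R 4.3.3. Genes were kept with filterByExpr, library sizes scaled by TMM, and groups compared with the two-sided quasi-likelihood test on the 2 groups concerned, p being adjusted by Benjamini-Hochberg across every gene in the fit (threshold 0.05). A standard error is the size of the log2 fold change over the root of the F statistic. Exon lengths, positions and shared 50-base stretches came from GENCODE vM21. Tests were tested on simulated data. DESeq2 1.42.0, other scalings and filters, left-out libraries and a replicate block were alternatives. Named were the 8 genes, other complement genes called after BAL101553, up to 2 called genes per role in the astrocyte-labelled comparison, paralogs and the 5 genes most like Masp1. Members and lists were chosen with earlier results of these data known. Pairs of libraries of a group differed by more than sampling noise (chi-square per degree of freedom 14.3 to 64.9).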

Additional observations from a re-analysis of the deposited data

How the results depend on the processing

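After BAL101553, Masp1 was called under 13 of 14 alternatives and C3 under 12 of 14. For these genes the counts are a description, since the comparison was used in choosing them. Cfp, Cd93, C1qbp and C4a were called under 12, 11, 7 and 6. Both Masp1 and C3 lost their call with 2 libraries per group, control 1 and 2 and BAL101553 2 and 3 (log2 fold changes 1.46 and 3.83), and C3 was not tested with at least 10 counts in every library. The number of genes called, 1860, was 2832 with DESeq2, 3022 with all 9 libraries in one model, 1 with 2 libraries per group, and 193 (without control 3) to 1712 when 1 library was left out, with 458 without control 1, 668 without BAL101553 3 and 1133 without BAL101553 1. Of the 8 genes, 1 was called with at least 10 counts in every library and 0 with 2 libraries per group. Of the other complement genes, 0 were called with 2 libraries per group and 0 (without control 3) to 4 with 1 library left out.

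Replicate numbers did not pair the libraries, as deviations of same-numbered libraries correlated at 0.143, 0.0113 and 0.145 between control and BAL101553. With the replicate number as a block, 1371 genes were called, 864 higher and 507 lower, and 3 of the 8 genes, Serping1 added. Under the block C4a (adjusted p = 0.0558) and C1qbp (0.0516) lost their calls and C2 gained one (0.0429, edgeR).

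In astrocyte-labelled against BAL101553 libraries, 5 of the 8 genes, Masp1 included, and 12 other complement genes were called with at least 10 counts in every library, since fewer genes are tested. Masp1 was at 0.018 against control in place of BAL101553. The cause of the other changes was not tested. Depth limits C1ra, C4b, Cd55 and Cd59a in SB28 cells and C3 and Cfb in controls, all of which have few reads there.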
